A study of Homo sapiens with 18 samples.

Results

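The comparison described here set THP-1 cells carrying a short hairpin RNA against NR4A2 (shNR4A2) against THP-1 cells carrying a hairpin without a target (shNT), both given LPS (2.5 μg/ml) during the last 2 h of culture. Its members were chosen by their labels alone and are 6 of the 18 RNA libraries of the study, 3 for each line. THP-1 is a human monocytic leukaemia line, and LPS is a bacterial cell wall component that activates monocytes through TLR4. The other 12 libraries come from the same lines without LPS and from a line with a hairpin against NR4A3 (shNR4A3), with and without LPS, 3 in each group. Each line was made by stable lentiviral transduction and kept under puromycin, and each hairpin is represented by 1 line, so that the effect of the hairpin and that of the line cannot be told apart. All cells stood in buffered medium for 2 h before LPS or nothing was added. The study describes its replicates as independent experiments. With LPS, the total counts of the shNT libraries ran from 20187892 to 21602737 reads and those of the shNR4A2 libraries from 17361839 to 20035677.

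NR4A2 belongs with NR4A1 and NR4A3 to a family of orphan nuclear receptors that are induced rapidly by inflammatory signals. They bind DNA as monomers at the NGFI-B response element or as dimers at other elements, and are regulated through their transcript levels and through modification of the protein. In monocytes and macrophages they are studied as regulators of the inflammatory response, lipid handling and differentiation. TPM, the unit used for levels below, scales each library to the same total and divides a gene's reads by the length of its exons, so that genes can be compared within a library. Fold changes are log2 values of shNR4A2 over shNT from edgeR's quasi-likelihood test, with their standard error (SE), and a gene was called at a Benjamini-Hochberg adjusted p under 0.05.

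The targeted transcript was lower in the line named for it. NR4A2 (ENSG00000153234, GRCh38 chromosome 2, 156324432 to 156342348) stood at 62.2, 74.7 and 51.2 TPM in the 3 shNT libraries with LPS and at 20.5, 28.3 and 14.8 TPM in the 3 shNR4A2 libraries. Every shNR4A2 library lay below every shNT library, and the mean level was 66.2% lower. The log2 fold change was -1.52 (SE 0.192, edgeR adjusted p = 0.00265). An exact 2-sided permutation test of the TPM gave p = 0.1, the smallest that 3 libraries against 3 allow. NR4A1, at 18.1 ± 4.13 TPM in shNT and 15.1 ± 2.11 TPM in shNR4A2 cells (SD, n = 3 each), had a log2 fold change of -0.21 (SE 0.158, edgeR adjusted p = 0.486). NR4A3, at 31.7 ± 0.708 TPM and 34.0 ± 1.86 TPM (SD, n = 3 each), had one of 0.16 (SE 0.0962, edgeR adjusted p = 0.377). Without LPS, NR4A2 was far less abundant, at 4.16, 2.83 and 4.08 TPM in shNT cells and 1.82, 1.63 and 2.40 TPM in shNR4A2 cells. The direct comparison of shNR4A2 with shNR4A3 cells, both with LPS, gave -1.15 for NR4A2 (edgeR adjusted p = 0.0352).

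**Figure D1:**
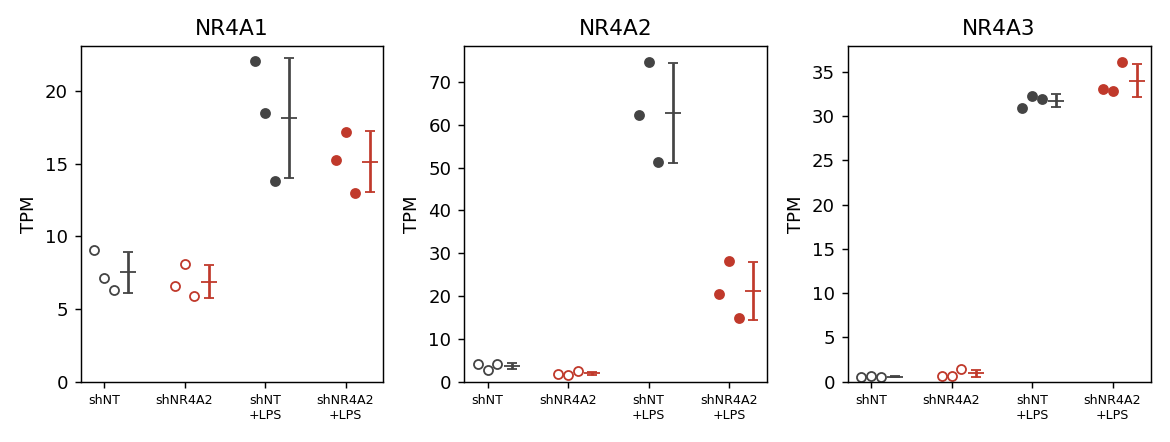
Levels of NR4A1, NR4A2 and NR4A3 in TPM (vertical axes) in shNT (grey) and shNR4A2 (red) cells without LPS (open points) and with LPS (filled points), 1 point per library, with the mean and SD of 3 libraries beside them. With LPS the shNR4A2 libraries held 14.8 to 28.3 TPM of NR4A2 against 51.2 to 74.7 TPM in shNT cells, while the groups overlapped for NR4A1.

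The cells kept a monocytic profile in all 6 libraries. The 10 monocyte markers examined (CD14, LYZ, CD33, ITGAM, CSF1R, FCGR1A, CD68, SPI1, CD4 and FCER1G) summed to 2042, 1722 and 1675 TPM in the shNT libraries and to 3215, 2587 and 2618 TPM in the shNR4A2 libraries, none was at 0, and the most abundant was SPI1. LYZ, FCER1G and CSF1R were called higher, and the other 7 were not called. T cell markers summed to between 3.66 and 6.02 TPM, and fibroblast, epithelial and neuron markers to under 3 TPM in every library. Of the 5 erythroid markers, 2 were at 0 in all 6 libraries. NK cell markers summed to between 33.6 and 54.0 TPM, mostly NKG7, with 3 of the 5 under 1 TPM in all 6 libraries. Endothelial markers summed to 157, 139 and 116 TPM in shNT and 226, 230 and 182 TPM in shNR4A2 cells, nearly all from PECAM1, which monocytes also express. B cell markers summed to between 7.69 and 13.3 TPM and megakaryocyte markers to between 6.60 and 11.8 TPM. In bulk RNA, more cells of a type and more RNA per cell cannot be told apart, and the part of these marker levels in the results below was not tested.

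With LPS, 1085 of the 15590 genes tested (6.96%) were called, 672 higher (4.31%) and 413 lower (2.65%) in shNR4A2 cells. At a change of at least 2-fold, 388 were called (2.49%), with 305 higher (1.96%) and 83 lower (0.532%). Tested against the 2-fold limit itself, 27 genes were called, 21 higher and 6 lower. At any fold 1843 genes were called with no filter on low counts and 1743 with all 18 libraries in one fit. For each of the 388 the 3 libraries of one line lay apart from the 3 of the other, as they did for 27.2% of all genes tested. Over all genes tested the groups lay apart more often with shNR4A2 lower (16.4%) than higher (10.8%) in TPM, the opposite of the order of the calls. The higher genes were mostly of low abundance, with a median of 1.87 TPM in shNT cells against 12.4 TPM over all genes tested, and 61 of them rose at least 4-fold. The lower genes stood at a median of 6.89 TPM in shNT cells, and 8 of them fell at least 4-fold. Libraries with the same replicate number deviated together, and a fit blocked on that number called 4385 genes (28.1%), 2364 of them higher (15.2%) and 2021 lower (13%), with 622 at 2-fold. The counts given below for lists with the block are to be read against these shares, and those without it against 4.31% higher and 2.65% lower. The counts also changed when single libraries were left out, which leaves fewer libraries for the test. Without shNT replicate 2, 342 genes were called and 191 at 2-fold, without shNT replicate 3 the counts were 409 and 204, without shNR4A2 replicate 1 they were 553 and 236, and without shNT replicate 1 519 genes were called. Of the 1085 genes, 298 were called in each of the 6 fits that left 1 library out, and 165 of these were 2-fold genes. Of the 145 called genes that the naming rules picked, 60 kept the call in each of these fits. Leaving out shNT replicate 1, 2 or 3 took the call from 56, 79 and 69 of them, and leaving out shNR4A2 replicate 1, 2 or 3 from 61, 13 and 26. The lost calls given below are mostly those without shNT replicate 2, and many of these genes also lost the call without another library. The plot of fold change against abundance shows the changes over the full range of levels.

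**Figure D2:**
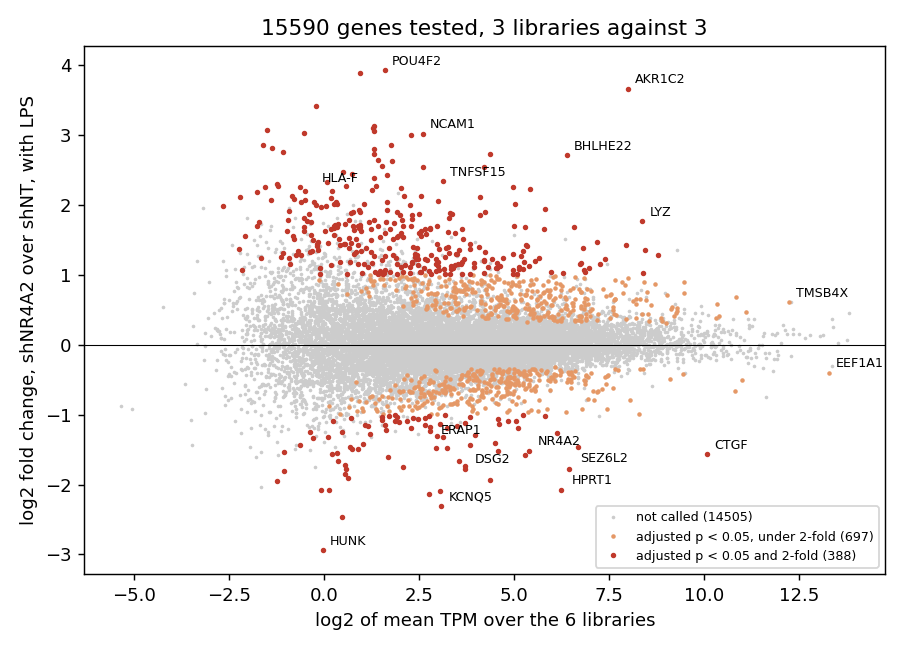
Log2 fold change of shNR4A2 over shNT cells with LPS (vertical axis) against the log2 of the mean TPM over the 6 libraries (horizontal axis) for the 15590 genes tested. Grey points were not called, orange points (697) passed an adjusted p under 0.05 at less than 2-fold, and red points (388) passed it at 2-fold or more, with 305 above and 83 below the line at 0.

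The gene with the largest gain in transcript level among those with at least a 2-fold change was AKR1C2, an aldo-keto reductase that acts on steroids and lipid aldehydes (ENSG00000151632, chromosome 10, 4987400 to 5018031). It had 38.6, 41.5 and 37.1 TPM in shNT cells and 459, 497 and 461 TPM in shNR4A2 cells, with no overlap and little spread within either line. Its log2 fold change was 3.65 (SE 0.0866, edgeR adjusted p = 5.81e-08). AKR1C1 rose from 4.35 ± 0.152 to 11.3 ± 0.725 TPM and AKR1C3 from 5.05 ± 0.324 to 11 ± 1.90 TPM (SD, n = 3 each), log2 fold changes of 1.43 and 1.18. The genes lie side by side on chromosome 10 and share much of their sequence, so the division of reads between them is uncertain. These 3 were the called members among 6 AKR1 genes tested (4 higher and 0 lower with the block). AKR1B1 and AKR1A1 had log2 fold changes of 0.09 and 0.20, and neither passed the test, though AKR1A1 did with the block (edgeR adjusted p = 0.0348).

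AKR1C2 was not raised in the shNR4A3 line, which held 38.5, 30.4 and 31.9 TPM with LPS. The direct comparison of the knockdown lines gave 3.81 for AKR1C2, 1.66 for AKR1C1 and 1.80 for AKR1C3 (edgeR adjusted p = 1.06e-05, 0.000251 and 0.00654). Without LPS, AKR1C2 stood at 53.4, 45.7 and 45.1 TPM in shNT and 580, 510 and 534 TPM in shNR4A2 cells.

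Other genes that respond to the transcription factor NRF2, which senses oxidative stress, were also higher. Of 23 tested, 9 were called higher and 0 lower (18 higher and 0 lower with the replicate block), and the median log2 fold change was 0.51 against -0.00136 over all genes tested. OSGIN1, an oxidative stress-induced growth inhibitor, had 22.1, 12.3 and 22.9 TPM in shNT and 45.9, 36.4 and 94.1 TPM in shNR4A2 cells, a log2 fold change of 1.69 (SE 0.370). NQO1, a quinone reductase, had 78.5, 70.0 and 99.1 TPM against 142, 125 and 240 TPM, a change of 1.09. SRXN1, which repairs peroxiredoxins, rose by 1.02 and the NADPH-producing malic enzyme ME1 by 0.87 on the log2 scale. In OSGIN1 and NQO1, shNR4A2 replicate 3 stood highest, and the lowest shNR4A2 library still lay above the highest shNT library. Without shNT replicate 2 the calls of OSGIN1, NQO1, SRXN1 and ME1 were lost (edgeR adjusted p = 0.0898, 0.126, 0.0623 and 0.146). In the direct comparison with shNR4A3 cells these 4 were not called, with differences of 1.11, 0.91, 0.54 and 0.53. The glutathione genes GCLC and GCLM and the haem oxygenase HMOX1 had log2 fold changes of 0.16, 0.94 and 1.15. They did not pass the test in the fit without the block, and their blocked values are not given here.

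Among the genes that fell, SEZ6L2, HPRT1 and KCNQ5 had the smallest adjusted p. HPRT1, the purine salvage enzyme often used as a reference gene (ENSG00000165704, chromosome X, 134460153 to 134520513), had 114, 131 and 125 TPM in shNT cells and 28.9, 31.1 and 24.7 TPM in shNR4A2 cells, a log2 fold change of -2.08 (SE 0.108, edgeR adjusted p = 1.72e-05). It was the only one called of 14 housekeeping genes tested (2 higher and 2 lower with the block), while GAPDH and RPLP0 had log2 fold changes of -0.02 and -0.08. ACTB, at 0.24, was among those that passed only with the block (edgeR adjusted p = 0.0467). SEZ6L2, a membrane protein known mainly from neurons (chromosome 16, 29871159 to 29899547), had 139, 145 and 129 TPM against 37.4, 39.4 and 39.1 TPM (-1.78, SE 0.0843, edgeR adjusted p = 1.34e-05). KCNQ5, a voltage-gated potassium channel subunit (chromosome 6, 72621792 to 73198851), had 13.7, 15.1 and 13.6 TPM against 2.22, 3.25 and 2.80 TPM (-2.31, SE 0.129, edgeR adjusted p = 2.68e-05). All 3 were called in each fit that left 1 library out.

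All 3 also differed between the knockdown lines, by -2.17 for HPRT1, -1.80 for SEZ6L2 and -1.82 for KCNQ5 (edgeR adjusted p = 4.85e-05, 4.32e-05 and 0.000652). HPRT1 in shNR4A3 cells with LPS, at 119, 128 and 135 TPM, lay within or just above the range of shNT cells. HUNK, a kinase of the AMPK family, had the largest fall, from 1.70, 2.13 and 1.40 TPM to 0.195, 0.246 and 0.206 TPM, a log2 fold change of -2.94 (SE 0.268, edgeR adjusted p = 0.000568). Unlike HPRT1, HUNK was also low in shNR4A3 cells, at 0.423, 0.322 and 0.424 TPM, and the knockdown lines did not differ by the test (-0.86, edgeR adjusted p = 0.205).

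The other lower genes with the largest changes were of low or middle abundance. ADGRG3, an adhesion G protein-coupled receptor of granulocytes, fell by 2.46, FAM163A by 2.10 and IGSF10 by 2.08 on the log2 scale, and so did the protocadherin PCDHB13, by 2.08. The kinase BRSK2 fell by 1.85 and the secreted protein FGFBP2 by 1.78. The call of BRSK2 was lost without shNT replicate 1 or shNR4A2 replicate 1 (edgeR adjusted p = 0.0601 and 0.0574), and that of FGFBP2 in 5 of the 6 fits that left 1 library out, with adjusted p up to 0.168, and with DESeq2 (adjusted p = 0.0954). The pseudogenes AC114501.1 and NUDT16P1 fell by 1.93 and 1.91, the latter with adjusted p up to 0.0861 when a library was left out. AL359853.1, LINC01088 and AC005034.3, with log2 fold changes of -2.13, -1.78 and -1.75, are annotated as antisense genes, and since the strand setting of the counting is not given in the sources used here, their reads cannot be told apart from those of the opposite strand. AL359853.1 reached an adjusted p of 0.0848 with a library left out, and AC005034.3 one of 0.0542 without shNT replicate 2.

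By difference in level, the largest falls among called genes were in abundant transcripts. EEF1A1, the translation elongation factor, fell from 11960, 11590 and 11300 TPM to 8752, 8544 and 8048 TPM, a log2 fold change of -0.40 (SE 0.102, edgeR adjusted p = 0.0469), a call that was lost in 5 of the 6 fits with a library left out, with adjusted p up to 0.142, and also with RLE scaling or the stricter filter. CTGF, also called CCN2, a matrix-associated growth factor, had 1841, 1720 and 1341 TPM in shNT and 647, 614 and 330 TPM in shNR4A2 cells (-1.57, SE 0.224, edgeR adjusted p = 0.00443). PRTN3, the neutrophil granule protease proteinase 3, had a log2 fold change of -0.67, CD70, a TNF family ligand, one of -0.42, and the endoplasmic reticulum protein CKAP4 one of -0.99. The non-coding gene AL713998.1 had one of -0.50. CTGF and CKAP4 were called in all 6 fits with a library left out, whereas without shNT replicate 2 PRTN3, CD70 and AL713998.1 were not (edgeR adjusted p = 0.141, 0.0612 and 0.128). Of these, CKAP4 was lower still in shNR4A3 cells (direct difference 1.94, edgeR adjusted p = 0.000397). CTGF was also low there, at 724.5, 655.5 and 546.7 TPM with LPS, and the knockdown lines did not differ by the test (-0.28, edgeR adjusted p = 0.585).

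Among called genes, the largest rises in level were also in abundant transcripts and, apart from AKR1C2, under 2-fold. Some genes not called without the block differed by as much, such as the ferritin chain FTL, whose mean was 3899 TPM higher (log2 fold change 0.45, edgeR adjusted p = 0.171). FTL had 12670, 10790 and 14200 TPM in shNT and 16560, 13270 and 19520 TPM in shNR4A2 cells, higher in each same-numbered pair. Its blocked value is not given here. TMSB4X, an actin-binding thymosin, rose from 3987, 4062 and 3732 TPM to 6336, 5584 and 5271 TPM (log2 fold change 0.61, SE 0.109). BTG2, an antiproliferative factor, rose from 1338, 1478 and 1524 TPM to 2282, 2282 and 2152 TPM (0.69, SE 0.0958). GPX1, a glutathione peroxidase, rose by 0.47 and its processed pseudogene GPX1P1 by 0.58, and their reads may have been divided between the copies. FCER1G, the signalling subunit of Fc receptors, rose by 0.89. BTG2 kept its call in all 6 fits with a library left out, while TMSB4X, GPX1, GPX1P1 and FCER1G lost theirs without shNT replicate 2 (edgeR adjusted p = 0.0642, 0.113, 0.0697 and 0.0955).

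Some of the largest relative rises were in genes known from neural and developmental settings. POU4F2, a POU homeobox transcription factor of retinal neurons, had 0.333, 0.286 and 0.512 TPM in shNT and 4.56, 6.36 and 6.09 TPM in shNR4A2 cells (3.92, SE 0.292, edgeR adjusted p = 0.000213). NCAM1, the neural cell adhesion molecule, had 1.44, 1.19 and 1.48 TPM against 8.66, 12.8 and 10.7 TPM (3.01, SE 0.155, edgeR adjusted p = 1.72e-05). BHLHE22, a basic helix-loop-helix factor, had 25.8, 19.9 and 23.4 TPM against 137, 158 and 141 TPM (2.71, SE 0.119, edgeR adjusted p = 1.00e-05). The groups were well apart in all 3 genes, as the plot of levels by library shows. In the direct comparison POU4F2 was higher than in shNR4A3 cells by 4.40 (edgeR adjusted p = 0.000234) and BHLHE22 by 1.13 (edgeR adjusted p = 0.000397), and NCAM1 did not differ by the test (0.28, edgeR adjusted p = 0.436), with 6.46, 10.3 and 9.74 TPM in shNR4A3 cells.

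Of 22 neural adhesion and axon guidance genes tested, 6 were called higher and 1 lower (10 and 2 with the block). Besides NCAM1 they included the netrin receptor UNC5A (1.39), the Slit receptor ROBO1 (1.01) and the semaphorin SEMA4D (0.92). NCAM2 was lower (-0.36). ROBO1 kept its call with each library left out, and UNC5A, SEMA4D and NCAM2 lost theirs without shNT replicate 2 (edgeR adjusted p = 0.0623, 0.0761 and 0.150). Of 7 neural transcription factors tested, POU4F2 and the LIM homeobox factor LHX2 (0.58, not called with any 1 library left out) were called higher and 0 lower (2 and 1 with the block). Of 50 ion channel genes tested 3 were higher and 3 lower (10 and 6 with the block), and of 34 cadherins 0 were higher and 2 lower, PCDHB13 and the desmosomal cadherin DSG2, which fell from 52.5, 70.1 and 56.4 TPM to 15.2, 24.6 and 17.9 TPM (-1.58, SE 0.148). With the block, 4 cadherins were higher and 9 lower.

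Further genes with large relative rises were of low abundance. The retinoic acid hydroxylase CYP26B1 rose by 3.41 on the log2 scale, the NOTCH target HEY1 by 3.09, the calcitonin receptor-like receptor CALCRL by 3.05, the myeloid receptor CD300E by 3.02, the homeobox gene HOXB7 by 2.80 and the peptidoglycan amidase PGLYRP2 by 2.73. C22orf42 had 1.87, 1.80 and 7.15 TPM in shNR4A2 cells, so that 1 library held most of its rise of 3.88. The calls of CD300E and C22orf42 were lost without shNT replicate 2 (edgeR adjusted p = 0.0853 and 0.0637). Among non-coding genes, AC104211.1, AC090136.3 and AC093278.2 rose by 3.13, 3.00 and 2.85. The latter pair are annotated as antisense to and as overlapping another gene, with the same limit on strand. AC090136.3 overlaps BHLHE22 on the opposite strand of chromosome 8, so its rise and that of BHLHE22 may share reads. RF00003, a U1 small nuclear RNA copy among many like it, rose by 2.72, and its reads cannot be assigned with certainty.

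**Figure D3:**
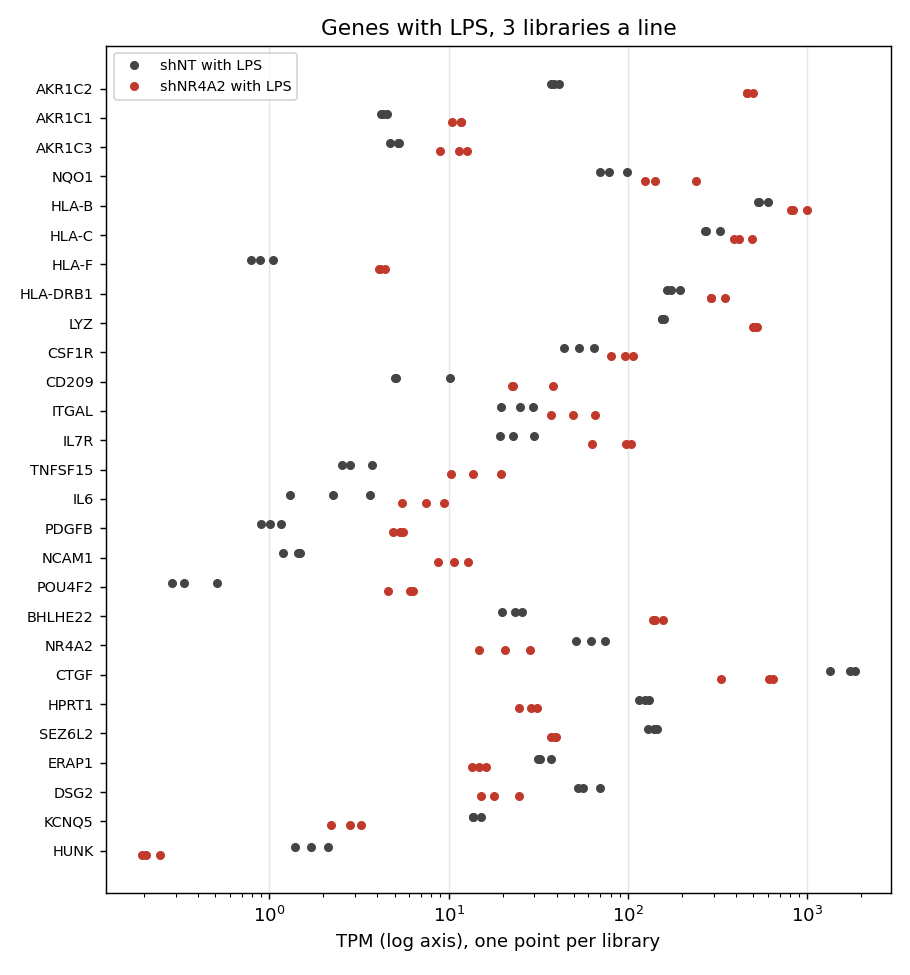
Levels in TPM on a log axis (horizontal) of 27 genes described in the text, 1 point per library, for shNT (grey) and shNR4A2 (red) cells with LPS, 3 libraries each. In each of the 27 genes the red points lie apart from the grey ones, from HUNK at 0.195 to 0.246 TPM in shNR4A2 cells up to CTGF at 1341 to 1841 TPM in shNT cells.

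Genes of antigen presentation were among those that rose. Of 20 class I and peptide loading genes tested, 7 were called higher and 1 lower (13 and 1 with the block), with a median log2 fold change of 0.31. The class I heavy chains HLA-B and HLA-C, which present peptides to CD8+ T cells, had log2 fold changes of 0.73 and 0.64. HLA-B rose from 601, 528 and 535 TPM to 1002, 837 and 810 TPM. The largest change was in HLA-F, a non-classical class I gene, from 1.04, 0.788 and 0.889 TPM to 4.10, 4.14 and 4.41 TPM (2.26, SE 0.216, edgeR adjusted p = 0.000700). ERAP1, the aminopeptidase that trims peptides for class I, moved the other way, from 32.5, 37.2 and 31.5 TPM to 13.6, 16.2 and 14.8 TPM (-1.13, SE 0.0900, edgeR adjusted p = 0.000262). Reads of HLA genes are shared between similar genes, and the THP-1 alleles may align differently from the reference, so the levels are uncertain while the comparison is between lines of the same origin.

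HLA-F and ERAP1 differed between the knockdown lines (1.94 and -1.29, edgeR adjusted p = 0.00292 and 0.000218). In the fit without the block, HLA-B and HLA-C did not pass that test (0.56 and 0.53, edgeR adjusted p = 0.0972 and 0.101). Both stood higher in shNR4A2 than in shNR4A3 cells in each same-numbered pair of libraries. With the block 3666 genes were called in that comparison, and its blocked values for single genes are not given here. Of 14 class II genes tested, 4 were higher and 0 lower (6 and 1 with the block). They were HLA-DPA1 (1.72), HLA-DRB1 (0.85), HLA-DRA (0.84) and HLA-DRB5 (0.78), the chains that present peptides to CD4+ T cells. All 4 were also called higher in shNR4A3 than in shNT cells with LPS (1.67, 0.50, 0.75 and 0.54). The knockdown lines did not differ in them by the test (0.05, 0.35, 0.09 and 0.25, edgeR adjusted p = 0.947, 0.200, 0.867 and 0.412). HLA-DRB1 was the most abundant, from 195, 174 and 166 TPM to 346, 289 and 290 TPM. HLA-F, ERAP1 and HLA-DRB1 were called with each library left out, while without shNT replicate 2 the calls of HLA-B, HLA-C, HLA-DRA, HLA-DRB5 and HLA-DPA1 were lost, with edgeR adjusted p between 0.0501 for HLA-DPA1 and 0.0994 for HLA-C.

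LYZ, the lysozyme of monocytes and macrophages, had 159, 156 and 156 TPM in shNT and 522, 497 and 507 TPM in shNR4A2 cells (1.76, SE 0.0923, edgeR adjusted p = 1.72e-05). In shNR4A3 cells it was also high, at 844, 634 and 719 TPM. Of 25 phagocytic and scavenger receptors tested, 7 were higher and 1 lower (17 and 1 with the block). The C-type lectin CD209 had 10.2, 5.02 and 5.10 TPM against 38.4, 22.4 and 22.7 TPM (2.11, SE 0.319), the inhibitory Fc receptor FCGR2B rose by 1.65, the scavenger receptor CD36 by 1.16 and the endocytic receptor LRP1 by 1.04, and the complement receptor C3AR1 fell by 0.66. FCGR2B was higher than in shNR4A3 cells (1.55, edgeR adjusted p = 0.00501) and CD36 lower (-1.27, edgeR adjusted p = 0.0264). Calls were lost for CD36 without shNT replicate 2 (edgeR adjusted p = 0.0619), for LRP1 without shNT replicate 1 (0.0582) and for C3AR1 without shNT replicate 1 or 3 (0.0722 and 0.0811).

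Of 32 interleukin and growth factor receptors tested, 9 were higher and 1 lower (22 and 4 with the block). The interleukin 7 receptor IL7R rose from 30.0, 19.3 and 22.9 TPM to 97.6, 63.0 and 104 TPM (1.94, SE 0.236, edgeR adjusted p = 0.00219). The chemokine receptors CCR7 and CCR1 rose by 1.71 and 0.75, and the M-CSF receptor CSF1R by 0.87. IL2RG, the common gamma chain, was the one that fell (-1.11). IFNGR2, a chain of the interferon gamma receptor, and IL6R, the interleukin 6 receptor, had the highest levels of the list in shNT cells and rose by 0.57 and 0.50. IL7R was called with each library left out. Without shNT replicate 2 the calls of CCR7, CCR1, CSF1R, IL6R and IFNGR2 were lost (edgeR adjusted p = 0.0607, 0.128, 0.0548, 0.0754 and 0.181), and without shNT replicate 3 that of IL2RG (edgeR adjusted p = 0.101).

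Of 27 integrins and leukocyte adhesion molecules, 7 were higher and 2 lower (15 and 2 with the block). ITGAL and ITGB2, which form the integrin LFA-1, rose by 1.08 and 0.70, and ITGB2 stood at 430, 418 and 378 TPM in shNT and 676, 649 and 594 TPM in shNR4A2 cells. The alpha chain ITGA6 rose by 1.59, ITGA1 by 1.98 from under 0.1 TPM, and the hyaluronan receptor CD44 by 0.80. ITGA4, the alpha chain of VLA-4, fell from 28.8, 38.6 and 26.4 TPM to 14.3, 22.3 and 13.6 TPM (-0.85, SE 0.171), and ICAM3 fell by 1.07. ITGA4 was lower than in shNR4A3 cells as well (-1.53, edgeR adjusted p = 0.00567). The calls of ITGA6, CD44, ITGA4 and ICAM3 were lost without shNT replicate 2 (edgeR adjusted p = 0.0535, 0.0990, 0.0737 and 0.0818).

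Cytokines changed in part. Of 25 tested, 4 were higher and 0 lower (12 and 3 with the block). TNFSF15, a TNF family ligand also called TL1A, had 3.71, 2.54 and 2.81 TPM in shNT and 19.6, 10.3 and 13.7 TPM in shNR4A2 cells (2.33, SE 0.269, edgeR adjusted p = 0.00170). IL6 had 3.62, 1.31 and 2.25 TPM against 9.38, 5.46 and 7.52 TPM (1.69, SE 0.370, edgeR adjusted p = 0.0272), and had no count in the 6 libraries of these lines without LPS. LTA rose by 1.40 and the interleukin 1 receptor antagonist IL1RN by 0.89. In shNR4A3 cells with LPS, IL6 stood at 12.5, 4.95 and 6.96 TPM. The knockdown lines did not differ by the test in TNFSF15, IL6, LTA or IL1RN (0.97, -0.14, 0.49 and -0.25, edgeR adjusted p = 0.222, 0.895, 0.507 and 0.688). TNF, at 0.06, was not called, and IL1B, at 0.61, passed only with the block (edgeR adjusted p = 4.30e-07). Of 18 chemokines tested, 0 were called higher or lower by edgeR, and with the block 6 were higher and 2 lower. CXCL8 and CCL20, the most abundant in shNT cells, had log2 fold changes of 0.15 and -0.04. TNFSF15 was called with each library left out, and IL6, LTA and IL1RN were not without shNT replicate 2 (edgeR adjusted p = 0.0852, 0.0615 and 0.148).

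Of 24 genes of NF-κB and TLR feedback, 5 were higher and 0 lower (11 and 1 with the block), among them the A20-binding protein TNIP3 (1.26), the adaptor TRAF1 (0.85), the IκB family member BCL3 (0.67) and the ubiquitin ligase BIRC3 (0.58). NFKBIA and TNFAIP3 themselves were not called, at 0.17 and 0.15. Of 14 TLRs and adaptors, TLR8 (1.68), TLR7 (0.91) and TLR6 (0.91) were higher and 0 were lower (9 and 1 with the block). Of 37 interferon-stimulated genes, 5 were higher and 0 lower (16 and 2 with the block). GBP2, an interferon-induced GTPase, rose from 23.1, 19.5 and 24 TPM to 55.0, 43.3 and 62.6 TPM (1.33, SE 0.171). GBP1 rose by 1.14 from under 1 TPM, IFI35 by 0.52 and GBP4 by 0.52. IFI6, the most abundant of the list in shNT cells, stood lower, from 437, 465 and 552 TPM to 179, 313 and 443 TPM. It was not called in the fit without the block (-0.59, edgeR adjusted p = 0.213). Of 26 immediate early genes, 4 were higher and 0 lower (13 and 2 with the block), including the phosphatases DUSP6 (1.12) and DUSP5 (0.88) and the zinc finger factor EGR2 (0.75), which stood at 82.1, 88.6 and 80.9 TPM in shNT cells and at 136 TPM in each shNR4A2 library. TLR8, GBP2, DUSP5 and EGR2 were called with each library left out. The other called genes just named lost the call without shNT replicate 2, with edgeR adjusted p between 0.0674 for TNIP3 and 0.183 for GBP4. Of the called members of each of these lists, 0 were called in the direct comparison of the knockdown lines. Direct differences were -0.03 for TNIP3, -0.01 for TRAF1, -0.04 for GBP1 and 0.02 for IFI35. TNIP3, TRAF1, GBP1, GBP2, GBP4 and IFI35 were also called higher in shNR4A3 than in shNT cells with LPS.

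Of 32 angiogenesis genes tested, 5 were higher and 3 lower (13 and 5 with the block). The growth factor PDGFB rose from 1.16, 1.01 and 0.898 TPM to 5.37, 4.88 and 5.59 TPM (2.42, SE 0.217, edgeR adjusted p = 0.000507), the vasoconstrictor peptide EDN1 by 2.38, the VEGF receptor FLT1 by 1.37 and the VEGF co-receptor NRP1 by 1.06 on the log2 scale. Another VEGF receptor, KDR, fell by 1.95 from under 1 TPM, and CTGF was among the lower genes of the list. Of 13 coagulation and plasminogen genes, thrombomodulin THBD (0.97), ANXA2 (0.81), S100A10 (0.80) and PROCR (0.69) were the 4 called higher, and 1 was called lower (8 and 1 with the block). ANXA2 and S100A10 form a complex that binds plasminogen. Without shNT replicate 2 the calls of EDN1, FLT1, KDR, THBD, ANXA2, S100A10 and PROCR were lost (edgeR adjusted p = 0.0678, 0.0994, 0.0713, 0.107, 0.0713, 0.0531 and 0.184).

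Groups outside these pathways were mixed. Of 33 cell cycle genes, the cyclin CCND1 (1.29) and the inhibitor CDKN1A (0.90) were called higher and 0 lower, with a median of -0.01 over the list (5 and 2 with the block). CCND1 rose from 19.3, 19.1 and 17.6 TPM to 47.6, 43.0 and 40.6 TPM, and CDKN1A from 174, 180 and 145 TPM to 295, 330 and 270 TPM. Of 22 heat shock and unfolded protein response genes 0 were called by edgeR in either direction (2 higher and 4 lower with the block), and of 22 glycolysis and itaconate genes HK1 was called, at 0.55 (9 higher and 0 lower with the block). Of 24 cholesterol genes, INSIG1 (0.80) and SQLE (0.35) were higher and SC5D, a late sterol desaturase, was lower (-0.91, SE 0.137), with 11 and 4 under the block. Of 15 prostaglandin and leukotriene genes, TBXAS1 (0.79), PTGS1 (0.67) and ALOX5AP (0.65) were higher and PTGDS (-1.43) and ALOX5 (-0.44) lower (6 and 4 with the block). Without shNT replicate 2 the calls of HK1, SQLE, TBXAS1, ALOX5AP, PTGDS and ALOX5 were lost (edgeR adjusted p = 0.137, 0.163, 0.0925, 0.139, 0.0511 and 0.117).

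Of 15 nuclear receptors PPARG (0.60) was higher and NR4A2 itself lower (5 and 2 with the block). Of 23 matrix and protease genes, the proteoglycan VCAN (1.80, SE 0.112, edgeR adjusted p = 5.23e-05) and fibronectin FN1 (1.28) were higher and the gelatinase MMP9 (-1.19) lower (7 and 3 with the block). Of 27 lineage transcription factors MAF (1.71) and IRF8 (0.62) were higher and 0 lower (8 and 6 with the block). Of 16 granule and S100 proteins LYZ, S100A10 and the protease inhibitor CST3 (0.65) were higher and PRTN3 lower (8 and 4 with the block). Of 13 ephrins and Eph receptors EFNA1 (1.11) was higher and EPHA7 lower (3 and 1 with the block). Of 6 metallothioneins MT1X (0.72) was higher and 0 lower (5 and 0 with the block), and of 20 inflammasome and BCL2 family genes BCL2A1 (1.02) and the pyrin gene MEFV (0.85) were higher and 0 lower (10 and 1 with the block). MMP9 was not called without shNR4A2 replicate 1 (edgeR adjusted p = 0.121), and PPARG, FN1, MAF, CST3, EFNA1, MT1X and BCL2A1 were not without shNT replicate 2 (edgeR adjusted p = 0.155, 0.0664, 0.102, 0.0534, 0.157, 0.184 and 0.123).

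**Figure D4:**
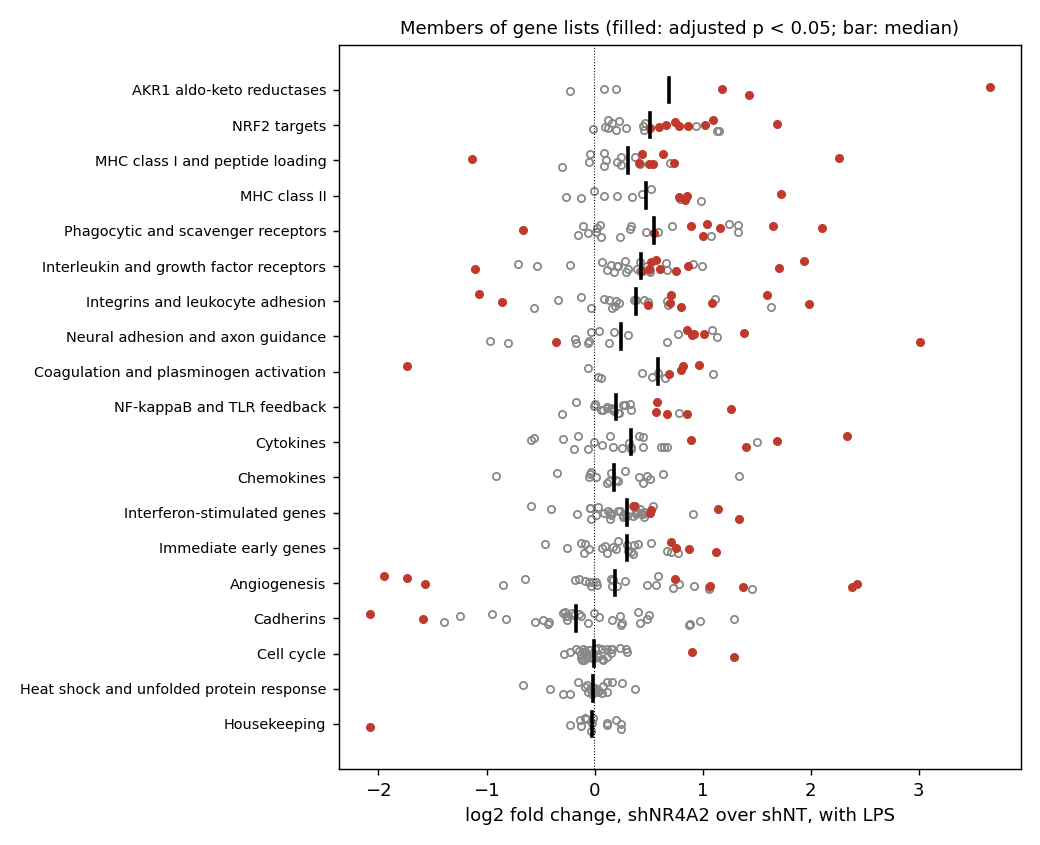
Log2 fold change of shNR4A2 over shNT cells with LPS (horizontal axis) for the tested members of 19 gene lists (vertical axis), 1 point per gene, filled where the adjusted p was under 0.05. The black bar is the list's median and the dotted line the median of all genes tested, and among the lists drawn, which leave out the metallothioneins with a median of 0.60, the medians of AKR1 reductases at 0.69, coagulation at 0.59, phagocytic receptors at 0.55 and NRF2 targets at 0.51 are the highest.

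Genes that LPS induced in shNR4A3 cells held a larger share of higher calls than genes not called at 2-fold for LPS in either direction. LPS response was taken from the shNR4A3 line, whose libraries are not in the comparison. There 946 genes rose and 628 fell at least 2-fold with LPS (6.17% and 4.09% of those tested). This choice favours genes raised in both knockdown lines. Of the 305 genes at least 2-fold higher with shNR4A2, 128 were also called higher in shNR4A3 than in shNT cells with LPS. How much of the shares below came from this choice was not tested. Of the 946, 936 were tested between shNR4A2 and shNT cells with LPS, and 131 of them (14%) were higher and 11 lower in shNR4A2 cells. Among 13501 genes in neither class, 3.64% were higher and 2.84% lower. Of 575 genes that LPS lowered, 18 were higher and 14 lower. Of 327 genes induced at least 8-fold, 66 (20.2%) were higher and 3 lower, and the median log2 fold change was 0.57. The count of 131 changed with the libraries and the fit used, for reasons that were not tested. It was 49 without shNT replicate 2, 62 without shNT replicate 3, 63 without shNR4A2 replicate 1, 81 without shNT replicate 1 and 275 without shNR4A2 replicate 2, and 424 higher and 61 lower with the block.

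Without LPS the median difference of these genes between the lines was smaller. For the 717 that could be tested in both conditions, the median log2 fold change was 0.26 with LPS and 0.09 without, and 91 were called higher with LPS against 56 without. Larger changes with LPS were not confined to induced genes. Among genes called with LPS and tested in both conditions, a choice that favours the values with LPS, the change was larger with LPS in 72 of 102 induced genes and in 684 of 926 others. Induced genes were not all higher, since CTGF, which LPS raised by 7.32 in shNR4A3 cells, was lower in shNR4A2 cells, and so was C3AR1, which LPS raised by 3.42.

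Whether the hairpin's effect differed with LPS was tested gene by gene in the 12 shNT and shNR4A2 libraries. With edgeR, 0 of 16674 genes passed the interaction test and 365 had an unadjusted p under 0.05. DESeq2 called 2, of which MYC is given here, named after its values were seen. MYC, the growth-promoting transcription factor, fell with LPS in both lines, from 381, 391 and 450 TPM to 58.5, 45.8 and 52.5 TPM in shNT cells and from 254, 265 and 272 TPM to 90.4, 56.0 and 68.2 TPM in shNR4A2 cells. Its interaction was 1.14 (SE 0.224, edgeR adjusted p = 0.946, DESeq2 adjusted p = 0.0450). With the replicate block edgeR called 8 interaction genes, and MYC was one of them (1.13, edgeR adjusted p = 0.0391). Without shNR4A2 LPS replicate 2, edgeR called 8 genes in the interaction, MYC among them.

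Most genes called with LPS stood the same way without it, in libraries that share no sample with the comparison. Of the 1085 genes, 1028 were also tested without LPS, 1017 of them had the same direction, and 613 (59.6%) were called there in that direction, against 6.59% of all genes tested in both conditions. Over all genes tested without LPS 6.45% were called, 3.63% higher and 2.82% lower. Of the 388 genes of at least 2-fold, 332 were tested without LPS, 328 had the same direction and 248 were called in it. The remaining 56 had too few counts without LPS to be tested. AKR1C2 had log2 fold changes of 3.65 with and 3.49 without LPS, HPRT1 -2.08 and -1.86, and HUNK -2.94 and -3.27. TNFSF15 stood at 2.33 with and 0.75 without LPS, where it was not called (edgeR adjusted p = 0.319). The pseudogene AC114501.1 had -1.93 with and -0.37 without.

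**Figure D5:**
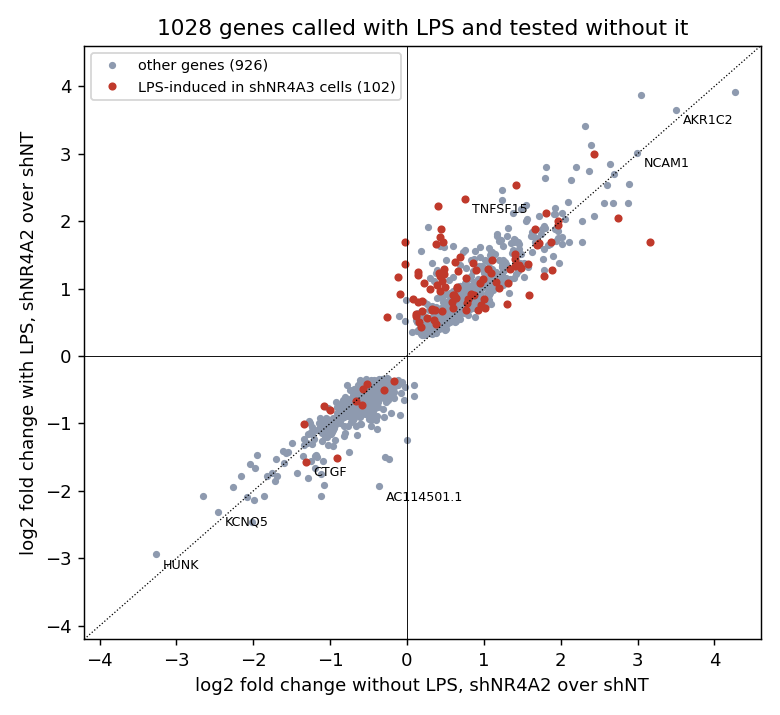
Log2 fold change of shNR4A2 over shNT cells with LPS (vertical axis) against that without LPS (horizontal axis) for the 1028 genes called with LPS and tested in both, with the 102 that LPS induced in shNR4A3 cells in red. All but 11 genes lie in the quadrants of equal sign around the dotted line of equal change, and since genes were chosen by their values with LPS their changes on that axis are favoured.

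The knockdown lines were also compared directly with LPS, which asks where shNR4A2 and shNR4A3 cells differed. Single-gene values of this comparison, here and above, come from the fit without the block. There 362 of 15539 genes were called (2.33%), 197 higher (1.27%) and 165 lower (1.06%) in shNR4A2 cells. Of the 305 genes at least 2-fold higher than in shNT cells, 50 were also called higher than in shNR4A3 cells, and of 75 lower genes tested, 25 were also called lower. The comparison of shNR4A3 with shNT cells shares the shNT libraries, and in it 128 of the 305 and 37 of the 83 were called in the same direction, and 0 and 3 in the other, where 6.45% of all genes tested were called, 3.99% higher and 2.46% lower. Genes lower or higher in shNR4A2 cells than in both other lines included, besides those given above, EPHA7, an ephrin receptor (direct difference -2.64), SC5D (-1.09), TBXAS1 (1.29), UNC5A (1.67) and PDGFB (1.43). EPHA7 was called lower against shNT cells at -0.91 and lost that call without shNT replicate 2 (edgeR adjusted p = 0.0886). The count of 362 fell to 94 without shNR4A3 LPS replicate 1, to 97 without replicate 3, to 185 without replicate 2, to 147, 196 and 217 without shNR4A2 LPS replicates 1, 2 and 3, and was 3666 with the block.

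Promoter sequences of RefSeq (GRCh38.p14, 250 bases before to 50 after each gene's start) were at hand for 10734 of the genes tested. They were searched for the NGFI-B response element at which NR4A receptors bind as monomers, spelled AAAGGTCA on the forward or TGACCTTT on the reverse strand. It was in 83 of them (0.773%), in 2 of 190 of the genes at least 2-fold higher (1.05%) and in 0 of 58 of the genes at least 2-fold lower. The 2 were CD1C, a lipid antigen-presenting molecule (log2 fold change 2.09, edgeR adjusted p = 0.0449, promoter chr1:158289673-158289972, plus strand), and SYNE1, a nuclear envelope spectrin (1.06, edgeR adjusted p = 0.0249, promoter chr6:152637313-152637612, minus strand). They are shown 5′ to 3′ with the element in capitals, 173 and 45 bases before the start.
CD1C: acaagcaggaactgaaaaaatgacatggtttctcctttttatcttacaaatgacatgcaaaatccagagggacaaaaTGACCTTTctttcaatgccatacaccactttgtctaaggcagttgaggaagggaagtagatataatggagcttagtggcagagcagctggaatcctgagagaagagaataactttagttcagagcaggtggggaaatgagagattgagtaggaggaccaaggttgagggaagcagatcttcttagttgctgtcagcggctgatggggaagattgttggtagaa
SYNE1: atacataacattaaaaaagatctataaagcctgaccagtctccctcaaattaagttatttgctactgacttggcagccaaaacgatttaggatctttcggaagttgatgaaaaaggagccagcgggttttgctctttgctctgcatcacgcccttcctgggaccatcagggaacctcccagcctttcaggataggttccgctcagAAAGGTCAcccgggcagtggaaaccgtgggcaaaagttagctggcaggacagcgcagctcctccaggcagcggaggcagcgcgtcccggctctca
These matches are a description of the letters within a short window and say nothing of binding.

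The antioxidant response element through which NRF2 acts, searched by its core TGACNNNGC on either strand after the values were known, was in 15.2% of all 10734 promoters, in 12.6% of the 190 higher and in 17.2% of the 58 lower ones. Of 9 NRF2 targets and AKR1 genes that were called higher and had a promoter sequence, 3 held it, TXNRD1, ME1 and PGD. The promoter of TXNRD1, the thioredoxin reductase (log2 fold change 0.74, edgeR adjusted p = 0.00881, chr12:104215529-104215828, plus strand), is shown with its 2 copies in capitals. ME1 also held 2, and TXNRD1 was chosen for its smaller adjusted p.
TXNRD1: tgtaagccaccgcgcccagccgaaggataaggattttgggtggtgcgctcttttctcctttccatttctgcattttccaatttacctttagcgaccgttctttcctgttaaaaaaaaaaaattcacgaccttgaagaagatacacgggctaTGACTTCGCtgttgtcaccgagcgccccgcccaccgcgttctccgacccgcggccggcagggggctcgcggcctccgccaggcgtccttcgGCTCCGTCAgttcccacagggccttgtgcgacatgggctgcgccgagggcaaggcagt
The promoters of AKR1C1, AKR1C2, AKR1C3, OSGIN1, NQO1 and SRXN1 did not hold these letters within this window.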

How the data were processed

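PolyA-selected RNA of 18 THP-1 libraries was sequenced as paired reads of 150 bases. The authors deposited raw read counts per gene with exon lengths, and the submitters' processing notes name Trimmomatic 0.36, STAR 2.5.2b, featureCounts of Subread 1.5.2 and GRCh38. The strand setting is not given in the sources used here. Symbols in the GENCODE 29 annotation were found for 56898 of the 57500 genes. From the counts, TPM was computed with the deposited exon lengths, and groups were compared in R 4.3.3 with edgeR 4.0.16 (filterByExpr, TMM, quasi-likelihood test, Benjamini-Hochberg adjustment), using only the libraries of each comparison. SE is the log2 fold change over the square root of F.

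Same-numbered libraries of shNT and shNR4A2 cells with LPS deviated together from their group means, with correlations across genes of 0.260, 0.384 and 0.404 for replicates 1, 2 and 3, all above the limit of 0.1. The main results nevertheless come from the fit without the replicate number. Blocked values are printed beside the list counts, most totals and a few genes. The block added 24 calls among named genes that were not called, and not each of these is marked. Blocked values are not given for single genes of the direct comparison, or for counts of genes shared between comparisons. The labels say nothing of a shared day or batch. Alternatives were DESeq2 1.42.0, RLE scaling, no filter, a CPM of at least 1 in 3 libraries, the replicate block, all 18 libraries in one fit, a test against the 2-fold limit and leaving out each library.

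Named genes were NR4A1, NR4A2 and NR4A3, the 15 higher and 15 lower called genes of largest fold change with at least 1 TPM in the higher group, the 6 higher and 6 lower of largest TPM difference, and of each list up to 4 called members in each direction and the 2 most abundant. The comparison and the lists were chosen with earlier results of these data known, and the lists are not independent evidence. Tested on simulated data for the comparison with LPS (15590 genes), edgeR recovered 79% of genes changed 2-fold and 99% of those changed 4-fold. False calls made up 8.72%, against 12.7% with the replicate block and 14.1% with DESeq2. The simulated libraries held no effect shared by replicate number, so these rates cannot judge the block on the real libraries. Only genes with a mean CPM of at least 1 were changed, so the rates do not cover scarcer genes. Fold changes of genes with paralogues, HLA genes and antisense genes are uncertain where reads could be divided. Some named genes and a gene list are not reported here.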

Additional observations from a re-analysis of the deposited data

How the results depend on the processing

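With LPS, 388 genes were called at 2-fold and the count was 622 with the replicate block, 27 when tested against the 2-fold limit itself and 191 to 491 with 1 library left out. At any fold 1085 genes were called, against 1843 with no filter, 4385 with the block, 1743 with all 18 libraries in one fit and 342 to 1477 with 1 library left out. Without LPS 1019 genes were called, against 1611 with no filter, 3733 with the block and 517 to 1128 with 1 library left out. In the interaction edgeR called 0 genes, DESeq2 2, edgeR with no filter 29, with the block 8 and with 1 library left out 0 to 8. Between the knockdown lines 362 genes were called, against 701 with DESeq2, 1102 with no filter, 3666 with the block, 1055 with all 18 libraries in one fit and 94 to 217 with 1 library left out. LPS-induced genes called higher numbered 131, against 302 with no filter, 424 with the block and 49 to 275 with 1 library left out. The LPS response of shNR4A3 cells stayed at 1380 to 1888 genes in all alternatives run, and NR4A2 was called in each, with log2 fold changes of -1.73 to -1.33 with 1 library left out. The causes of these changes in count were not tested. Beyond the counts given beside the lists, the block took no call from the 145 called genes the rules named and added 24 of the 68 not called.

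Of these 68 genes, 27 changed sign in some fits that left out 1 library, with log2 fold changes of -0.062 to 0.084 for NR1H2, -0.033 to 0.18 for CTSS, -0.12 to 0.30 for CXCL8, -0.36 to 0.18 for CCL20, -0.0036 to 0.11 for TNF, -0.054 to 0.20 for JUN, -0.036 to 0.18 for AKR1B1, -0.088 to 0.10 for ENG, -0.36 to 0.14 for EFNB1, -0.19 to 0.045 for DOCK8, -0.29 to 0.22 for UNC5B, -0.82 to 0.44 for OLIG1, -0.27 to 0.54 for OLIG2, -0.052 to 0.30 for PCDHGC3, -0.31 to 0.010 for TIMP3, -0.13 to 0.18 for MMP14, -0.15 to 0.19 for TYROBP, -0.092 to 0.13 for CDC20, -0.020 to 0.15 for SCD, -0.074 to 0.043 for GAPDH, -0.19 to 0.25 for PTGER4, -0.056 to 0.15 for F3, -0.038 to 0.054 for HSP90AB1, -0.23 to 0.22 for HSPA8, -0.27 to 0.61 for CD8A, -0.17 to 0.11 for NKG7 and -1.35 to 0.20 for GNLY. MMP14 stood at 0.0073 with the block, and PTGER4 at -0.0075 with no filter and -0.020 with the block. The 3 libraries a group limit the precision, and genes of a few reads a library were not tested.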

Other observations

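Called genes were not spread evenly over the chromosomes. Against 6.96% of all genes tested, 15.2% of the 164 genes tested on chromosome 21 were called, 19 higher and 6 lower in shNR4A2 cells with LPS, and 10.6% of the 811 on chromosome 6, which holds the HLA genes, 56 higher and 30 lower. The median log2 fold change per chromosome ranged from -0.08 on chromosome 13 to 0.04 on chromosome 11. No test was made of these shares.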
